A study of Oryctolagus cuniculus with 34 samples.

Results

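The 34 genes described here encode enzymes and carriers of the citric acid cycle and of fatty acid oxidation, most of them mitochondrial, out of 18176 genes counted in the supraspinatus of rabbits, which belongs to the rotator cuff. They were listed by name for their pathway, with no rule on their measured values, and all 34 had a row in every count file. Total RNA from 34 muscle samples was sequenced. In the short term there were 4 samples with injury only, 5 with repair only and 5 in which the repair was combined with a matrix gel derived from tissue. In the long term there were 10 uninjured samples, 5 with repair only and 5 with repair and the gel. The durations behind the 2 terms, the strain, sex and age of the rabbits and the kind of repair are not stated in the labels used here. No short-term uninjured and no long-term injury samples were analysed here. The labels do not say that replicates came from separate animals, so p-values measure the spread between these samples, which may be partly technical.

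The citric acid cycle oxidises the acetyl group of acetyl-CoA in mitochondria and hands its electrons to the respiratory chain. Fatty acids reach the same acetyl-CoA by beta-oxidation: they are bound by carriers in the cytosol, moved across the inner membrane as carnitine esters, and then shortened in repeated turns of dehydrogenation, hydration, a second dehydrogenation and thiolysis. Slow, oxidative muscle fibres are known to depend on these pathways more than fast, glycolytic fibres do. In the set, 12 genes belong to the cycle, 5 to carriers and the carnitine shuttle, 5 to the acyl-CoA dehydrogenases, 5 to the later steps of beta-oxidation, 4 to auxiliary isomerases and reductases, and 3 to the electron transfer from the dehydrogenases to the respiratory chain.

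Library totals ran from 26942521 to 32337212 counts in the short term and from 12593821 to 15033385 in the long term, and the 34 genes took 0.5 to 1.11% and 0.688 to 1.16% of them. The smallest single count of a gene of the set was 52 in the short term and 11 in the long term, in both cases DECR2. All 34 passed the filter on low counts in every fit. Levels are given as counts scaled to library size (CPM) and, for a list of genes in 1 library, as the mean log2 CPM over the list. CPM was not divided by transcript length, so levels are compared between libraries and not between genes. The 12 muscle fibre markers, among them ACTA1, CKM and TTN, were abundant in every group, with a summed level of at least 36800 CPM, as the labelled tissue implies. In bulk muscle, fewer cells of a type and less RNA per cell cannot be told apart.

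The libraries labelled short-term injury replicate 3 and short-term repair replicate 4 stood apart from their groups. Injury replicate 3 had a fibroblast marker mean of 9.16 on the log2 CPM scale against 6.14 to 6.77 in the other injury libraries, and a muscle fibre marker mean of 11.77 against 12.55 to 12.95. Repair replicate 4 had a fibroblast mean of 5.95 against 8.96 to 10.81 in the other repair libraries, and a fibre mean of 12.67 against 10.73 to 12.04. By these 2 lists each lay nearer to the other group than to its own. Other lists did not follow: slow fibre markers were at 11 in injury replicate 3, against 9.75 to 10.41 in the other injury and 8.47 to 9.56 in the other repair libraries, and at 7.74 in repair replicate 4. Adipocyte markers were at 7.57 in injury replicate 3, against 5.40 to 6.86 in the other injury libraries. Short-term results are given with and without both. In the long term, gel replicate 1 stood apart within the set: it had the lowest value of 20 libraries for 7 of the 34 genes and the highest for 16.

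**Figure D1:**
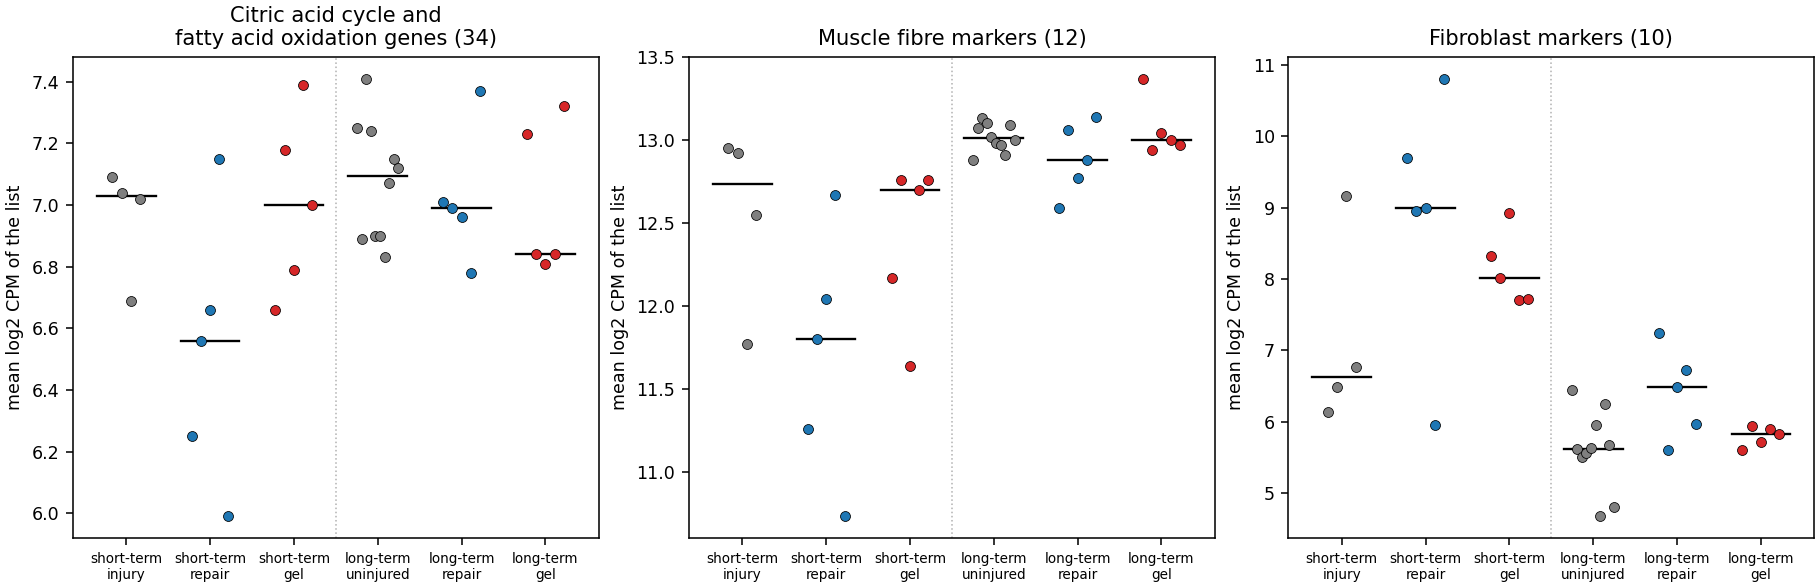
Mean log2 CPM per library of the 34 genes of the set (left), 12 muscle fibre markers (middle) and 10 fibroblast markers (right), with 1 point per library and a black line at the group median. Repair replicates 1 to 3 and 5 of the short term lie between 5.99 and 6.66 in the left panel, repair replicate 4 at 7.15, and the long-term groups between 6.78 and 7.41.

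Over the whole set, the short-term repair libraries had the lowest levels in the study. The mean log2 CPM of the 34 genes was 6.25, 6.56, 6.66, 7.15 and 5.99 in repair replicates 1 to 5. It was 6.66, 7.18, 6.79, 7.39 and 7.00 with the gel, and 7.09, 7.04, 6.69 and 7.02 after injury only. Gel replicate 1 lay level with repair replicate 3, and repair replicate 4 lay above 3 of the 5 gel libraries, so the groups overlapped. The group means were 6.52 ± 0.44 for repair, 7.00 ± 0.29 for the gel (SD, n = 5 each) and 6.96 ± 0.18 for injury (SD, n = 4). In the long term they were 7.08 ± 0.19 without injury (SD, n = 10), 7.02 ± 0.21 after repair and 7.01 ± 0.24 with the gel (SD, n = 5 each), differences smaller than the spread between replicates. Repair replicate 5 held the lowest short-term value for 22 of the 34 genes, and gel replicate 4 the highest for 13.

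Muscle fibre markers moved with these levels. Their mean log2 CPM was 11.70 ± 0.74 in short-term repair, 12.41 ± 0.49 with the gel and 12.55 ± 0.55 after injury. The set's mean minus the fibre marker mean of the same library was -5.18 ± 0.31 after repair, -5.40 ± 0.35 with the gel and -5.59 ± 0.37 after injury. Relative to the fibre markers, the repair group thus had the highest mean of the 3, within the spread between replicates. The part of fibre content in the short-term differences of the set was not tested.

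In the short term, gel-treated repairs were first set against repairs without gel. All 34 genes had fitted values above 0, with a median log2 difference of 0.44 (gel minus repair) against -0.04 over all genes tested, of which 45.7% lay above 0. None passed the test: at an adjusted p under 0.05, edgeR with its quasi-likelihood test called 0 of the 34 and 0% of all genes. At an unadjusted p under 0.05 there were 15 of the 34 (44.1%) against 10.4% of all genes. Values of 1 gene, DBI, were higher with the gel without overlap of the groups (2.94%), against 0.702% of all genes. DESeq2 called 5 of the 34, all higher (14.7%, against 0.939% of all genes). With sample quality weights, limma voom called 0 (0.0222% of all genes).

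DBI, the acyl-CoA binding protein that buffers long-chain acyl-CoA esters in the cytosol, had the smallest p. Its level with the gel was 97.1, 150, 157, 131 and 111 CPM, and with repair alone 51.8, 73.7, 87.8, 49.9 and 76.7 CPM. The lowest gel library lay above the highest repair library. The log2 difference was 0.98 (SE 0.19, edgeR adjusted p = 0.369, DESeq2 adjusted p = 0.00132). After injury only, DBI was at 75.2, 63.2, 63.2 and 66.1 CPM, so the gel libraries were above both other short-term groups.

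The electron transfer flavoprotein accepts electrons from all the acyl-CoA dehydrogenases, and both of its subunits were among the 5 genes with the smallest p. Its beta subunit ETFB was at 93.9, 111, 132, 204 and 182 CPM with the gel and at 45.1, 62.9, 62.5, 98.7 and 53.2 CPM after repair alone. Only repair replicate 4 reached the range of the gel libraries. The log2 difference of ETFB was 1.23 (SE 0.25, edgeR adjusted p = 0.369), and that of the alpha subunit ETFA was 0.79 (SE 0.21, adjusted p = 0.383). ETFDH, which passes the electrons on to ubiquinone, had 169, 235, 139, 193 and 151 CPM with the gel and 141, 173, 181, 196 and 107 CPM after repair, with wide overlap.

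MDH1, the cytosolic malate dehydrogenase of the malate-aspartate shuttle, was at 208, 315, 204, 472 and 308 CPM with the gel and at 107, 177, 171, 236 and 92.6 CPM after repair alone. Its log2 difference was 1.01 (SE 0.28, edgeR adjusted p = 0.406). ECI2, an enoyl-CoA isomerase needed for unsaturated fatty acids, was at 19.4, 21.1, 17.6, 22 and 20.8 CPM against 15.3, 15.2, 15.8, 19.2 and 12.7 CPM, a log2 difference of 0.43 (SE 0.13, adjusted p = 0.406). In both genes the gel libraries overlapped with repair replicate 4, and no other repair library came within the gel range.

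By role, the median log2 difference was 0.94 in the carriers and carnitine shuttle, 0.79 in electron transfer, 0.57 in the acyl-CoA dehydrogenases, 0.49 in the cycle enzymes, 0.43 in the later steps and 0.32 in the isomerases and reductases. Within the carriers the spread was wide, from 0.15 for SLC25A20, the carnitine-acylcarnitine translocase, to 1.1 for FABP3, the fatty acid binding protein of muscle. FABP3 was at 65, 115, 41.9, 277 and 210 CPM with the gel and at 45.8, 59, 81.8, 131 and 32.9 CPM after repair, so that libraries of both groups were interleaved. The smallest difference of the set was that of HADHB, 0.127.

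Without the 2 libraries that stood apart, all 34 values stayed above 0 and the median was 0.72, with 0 genes of the set called (0.0952% of all genes). Both were picked after their values were seen. Leaving out repair replicate 4 widens this difference by construction, so these values are descriptions. With repair replicate 5 alone left out the median was 0.33, the lowest of all single omissions, and with repair replicate 4 left out 0.72, the highest.

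Other genes of oxidative metabolism mostly had values of the same sign, apart from peroxisomal genes and regulators, and none passed the test. In the respiratory chain list 21 of 21 genes were above 0 (median 0.64). In the list on ketone bodies and branched-chain amino acids it was 14 of 15 (median 0.39; BDH1 1.45, SE 0.42, edgeR adjusted p = 0.406). Of 18 other genes of fatty acid uptake and oxidation 13 were above 0 (median 0.25), of 10 peroxisomal genes 3 (median -0.084) and of 19 regulators of mitochondrial and fatty acid genes 8 (median -0.025). Glycolysis genes were above 0 in 13 of 16 (median 0.33). Markers of fibres moved along: slow fibre genes were above 0 in 9 of 9 (median 1.3) and muscle fibre markers in 11 of 12 (0.59). Regenerating fibre markers, among them MYH3 and ACTC1, were above 0 in 5 of 6 (2.7). Fast fibre genes were above 0 in 2 of 8 (-0.073). Fibroblast markers were above 0 in 0 of 10 (median -1.1). Their summed level ran from 1340 to 88600 CPM in repair and from 4020 to 11300 CPM with the gel. The part of fibre and fibroblast content in these differences was not tested.

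**Figure D2:**
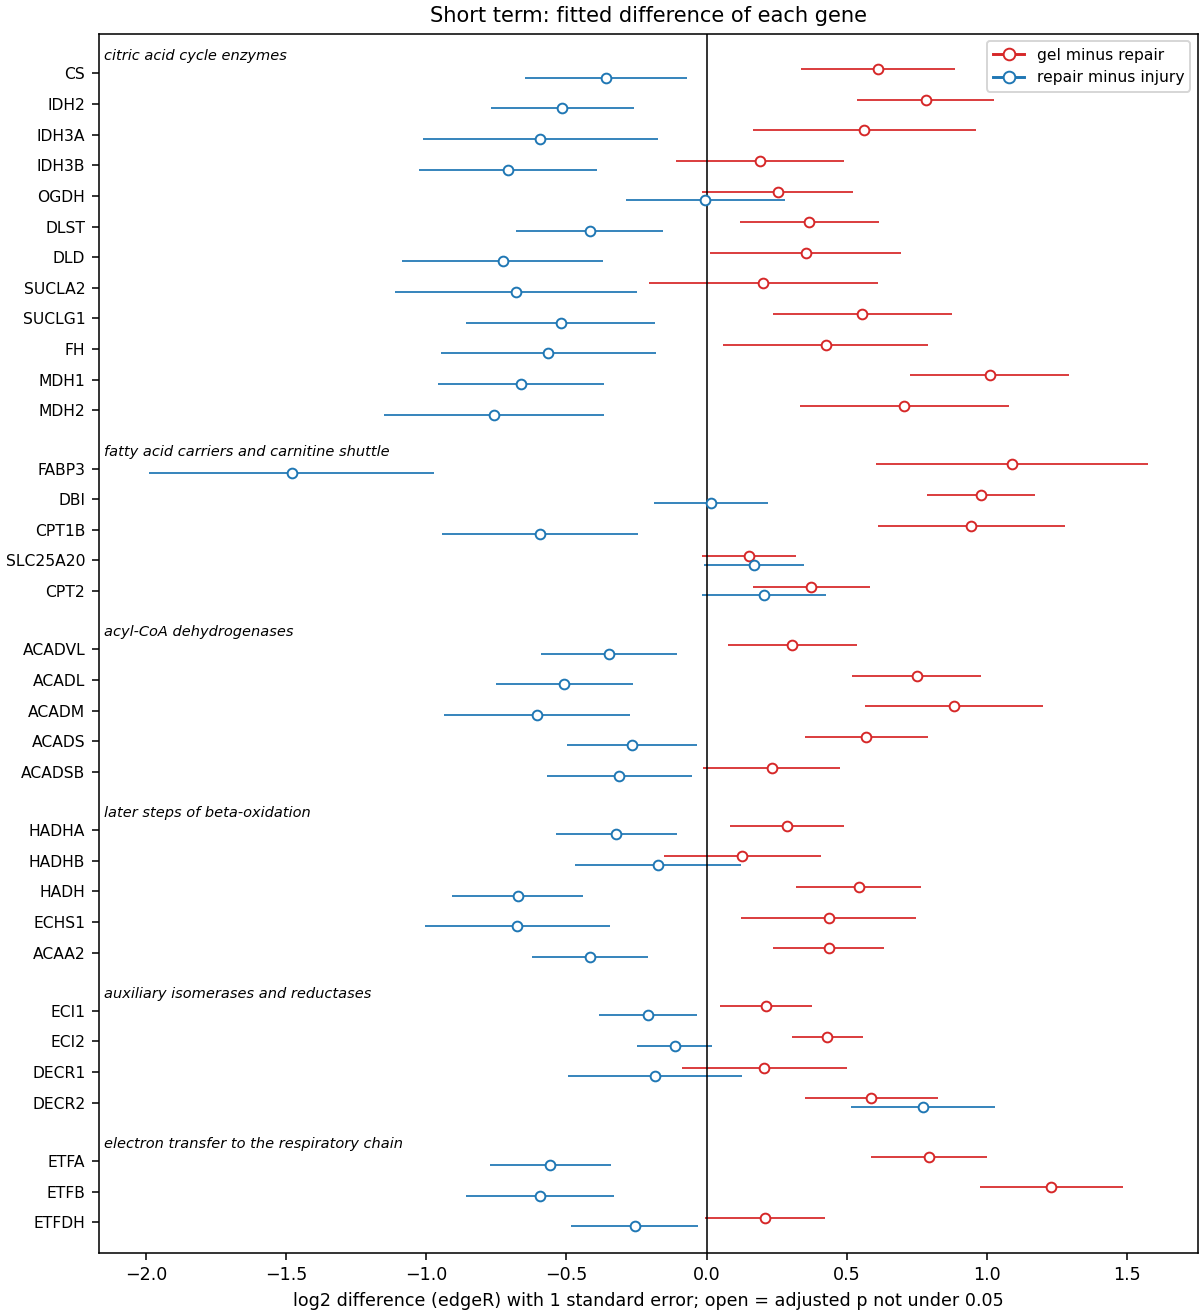
Fitted log2 differences of the 34 genes in the short term, gel minus repair in red and repair minus injury in blue, with bars of 1 standard error. All 34 red points lie above 0 and 30 of 34 blue points below 0, and all are open because none had an adjusted p under 0.05.

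The second comparison set repair against injury only in the short term. Its repair libraries are the same as above, so values of opposite sign in the 2 comparisons are not independent. Of the 34 genes 30 were below 0, with a median log2 difference of -0.46 (repair minus injury) against 0.021 over all genes. No gene of the set and 0% of all genes passed edgeR's quasi-likelihood test, and 7 of 34 (20.6%) against 14.6% of all genes had an unadjusted p under 0.05. One gene, FABP3, was lower without overlap (2.94%), against 0.895% of all genes. DESeq2 called 0 of the 34 (1.71% of all genes). Limma voom with sample quality weights, which gives less weight to libraries far from their group, called 17, of which 16 were lower (50%, against 34.8% of all genes in either direction).

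FABP3 was at 45.8, 59, 81.8, 131 and 32.9 CPM after repair and at 232, 239, 160 and 145 CPM after injury only. The highest repair library lay just below the lowest injury library. The log2 difference was -1.48 (SE 0.51, edgeR adjusted p = 0.322). HADH, which oxidises medium- and short-chain hydroxyacyl-CoA, was at 65.4, 79.2, 78.6, 118 and 44.2 CPM after repair and at 116, 109, 136 and 125 CPM after injury (log2 difference -0.67, SE 0.23, adjusted p = 0.322). Only repair replicate 4 reached the injury range. ETFA (-0.56, SE 0.22, adjusted p = 0.322) and IDH3B, a subunit of the NAD-dependent isocitrate dehydrogenase (-0.71, SE 0.32, adjusted p = 0.337), completed the genes of smallest p that were lower.

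DECR2 went the other way. It encodes the peroxisomal 2,4-dienoyl-CoA reductase, while DECR1 is its mitochondrial counterpart. DECR2 was at 6.4, 4.37, 5.4, 4.67 and 5.05 CPM after repair and at 2.22, 2.23, 3.62 and 3.92 CPM after injury, with every repair library above every injury library, as in 1.02% of all genes (log2 difference 0.77, SE 0.26, edgeR adjusted p = 0.322). DECR1 was at 32, 32.7, 38.2, 29 and 18.4 CPM and at 30.1, 38, 34.5 and 32.8 CPM, with no such separation. The other values above 0 were those of the carnitine shuttle genes SLC25A20 and CPT2, and of DBI.

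All 12 cycle enzymes, all 5 acyl-CoA dehydrogenases, all 5 genes of the later steps and all 3 of electron transfer were below 0, with medians of -0.58, -0.35, -0.42 and -0.56. In the carriers and carnitine shuttle 2 of 5 were below 0.

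These calls turned on the 2 libraries that stood apart. The 2 were picked after their values were seen, because their markers resembled the opposite group, so leaving them out widens the difference by construction and the p-values below are descriptions. Without them 22 of the 34 genes (64.7%) had an edgeR adjusted p under 0.05, 21 lower and 1 higher, against 33.3% of all genes in either direction. The median of the set was then -0.78. The median of the cycle enzymes went from -0.58 to -1.1, and among them were SUCLA2, a subunit of succinyl-CoA synthetase (-1.49, SE 0.31, adjusted p = 0.00634), MDH2, the mitochondrial malate dehydrogenase (-1.43, SE 0.31, adjusted p = 0.00706), and IDH3B (-1.29, SE 0.23, adjusted p = 0.00443). The 1 higher gene was DECR2 (0.86, SE 0.29, adjusted p = 0.0364). With either library alone left out, 0 of the 34 were called.

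SUCLA2 shows what those 2 libraries do to the comparison. It was at 215, 243, 80.8 and 198 CPM in injury replicates 1 to 4 and at 64.9, 88.8, 121, 256 and 51.6 CPM in repair replicates 1 to 5. Injury replicate 3 lay among the repair libraries, and repair replicate 4 above all injury libraries.

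In this comparison respiratory chain genes were below 0 in 21 of 21 (median -0.56), other citric acid cycle genes in 9 of 10 (-0.59; SUCLG2 -0.93, SE 0.23, edgeR adjusted p = 0.322) and genes of pyruvate entry in 13 of 14 (-0.31). Muscle fibre markers were below 0 in 11 of 12 (median -0.57) and adipocyte markers in 9 of 9 (-1.7). Fibroblast markers were above 0 in 10 of 10 (1.8) and macrophage markers in 8 of 8 (1.9), and no gene of these lists passed. The part of these cell types in the set's values was not tested.

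The third comparison set the gel against injury only. Here the set as a whole lay near 0: 19 of 34 genes were above 0, with a median log2 difference of 0.021 against 0.022 over all genes. No gene of the set and 0% of all genes passed edgeR's quasi-likelihood test, and 5 of 34 (14.7%) against 18.4% of all genes had an unadjusted p under 0.05. DECR2 and DBI were higher with the gel without overlap (5.88%), against 3.73% of all genes. DESeq2 called 2 of the 34 (5.88%, against 5.83% of all genes) and limma voom 5 (14.7%, against 28.1%).

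DECR2 was at 5.98, 7.75, 11.1, 6.58 and 5.99 CPM with the gel, and its lowest gel library lay above the highest injury library, at 3.92 CPM. The log2 difference was 1.36 (SE 0.26, edgeR adjusted p = 0.124, DESeq2 adjusted p = 0.000106). That of DBI was 0.995 (SE 0.21, edgeR adjusted p = 0.124, DESeq2 adjusted p = 0.000732). DECR2 alone passed edgeR's test without injury replicate 3 (1.41, adjusted p = 0.0387). Without both libraries that stood apart 3 genes were under the threshold (8.82%, against 18.9% of all genes): DECR2 (1.41, adjusted p = 0.0101), DBI (0.91, adjusted p = 0.0161) and, lower, IDH3B (-0.77, SE 0.22, adjusted p = 0.0321).

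CPT2, the inner-membrane carnitine palmitoyltransferase (0.58, SE 0.22, edgeR adjusted p = 0.211), ETFB (0.64, SE 0.27, adjusted p = 0.236) and ECI2 (0.32, SE 0.14, adjusted p = 0.242) had the next smallest p, and their groups overlapped. Peroxisomal genes other than DECR2 were above 0 in 5 of 10 (median -0.015). The median of the cycle enzymes was -0.04, and -0.3 without the 2 libraries. Regenerating fibre markers were above 0 in 6 of 6 (median 2.9) and macrophage markers in 8 of 8 (2.5). Fibroblast markers were above 0 in 7 of 10 (0.7), muscle fibre markers in 4 of 12 (-0.22) and adipocyte markers in 0 of 9 (-1.7). No gene of these lists passed, and the part of these cell types in the set's values was not tested.

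**Figure D3:**
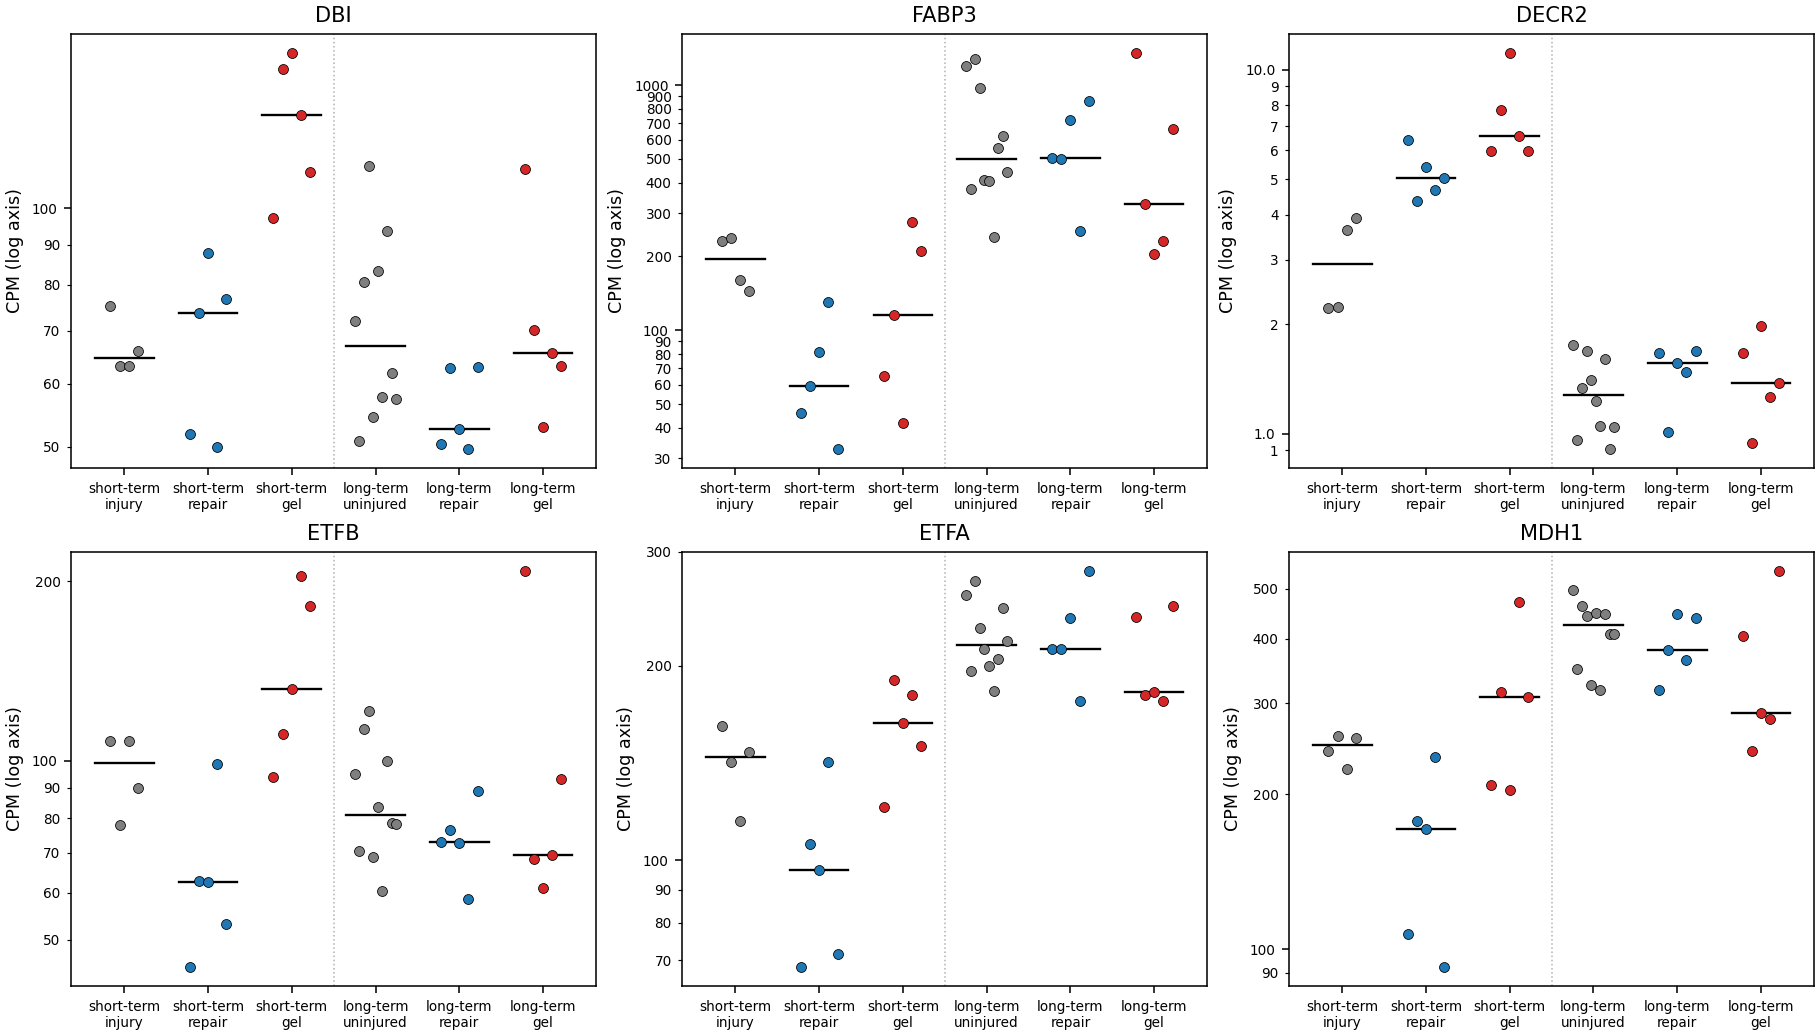
CPM per library on log axes for DBI, FABP3, DECR2, ETFB, ETFA and MDH1, with 1 point per library and a line at the group median. The 5 short-term gel libraries of DBI, from 97.1 to 157 CPM, lie above all other short-term libraries, and DECR2 separates injury from repair and from the gel in the short term.

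The same contrast of gel and repair was made in the long term. The set lay close to 0: 15 of 34 genes were above 0, with a median log2 difference of -0.069 (gel minus repair) against -0.028 over all genes. The quasi-likelihood test of edgeR called 0 of the 34 and 0% of all genes, and 2 of 34 (5.88%) against 14.2% of all genes had an unadjusted p under 0.05. DESeq2 and limma voom called 0 of the 34, with no share of all genes at hand for these 2 tools outside the short-term comparisons.

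Of the 5 genes with the smallest p, ECI1, the mitochondrial enoyl-CoA isomerase, had a log2 difference of 0.62 (SE 0.25, edgeR adjusted p = 0.318), IDH3A, the catalytic subunit of NAD-dependent isocitrate dehydrogenase, one of 0.53 (SE 0.24, adjusted p = 0.339) and ECI2 one of 0.26 (SE 0.13, adjusted p = 0.361). MDH2 followed with 0.38 (SE 0.20, adjusted p = 0.379) and ACADL, the long-chain acyl-CoA dehydrogenase, with -0.40 (SE 0.23, adjusted p = 0.414). Gel replicate 1 set several of these values. ECI1 was at 106, 34, 31.7, 40.1 and 47.4 CPM in gel replicates 1 to 5 and at 33.6, 33.7, 30.7, 24.7 and 41.5 CPM after repair. Without gel replicate 1 the differences were 0.205 for ECI1, 0.145 for ECI2 and 0.0871 for MDH2. ECI2 was at 24.4, 16.2, 17, 16.7 and 17 CPM with the gel and at 15.1, 15.2, 13.3, 16.1 and 15 CPM after repair. It was the 1 gene of the set higher with the gel without overlap of the groups (2.94%), against 129 of 11605 genes tested.

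In long-term gel replicate 1 the set split in 2 directions. ACADM, the medium-chain acyl-CoA dehydrogenase, was at 44.4 CPM there and at 187, 233, 186 and 316 CPM in the other gel libraries. The same library was lowest of all 20 for the long-chain and the short/branched-chain dehydrogenases ACADL and ACADSB, for DLD, SUCLA2, FH and ETFDH. DLD, the dihydrolipoamide dehydrogenase shared by the 2-oxoglutarate and pyruvate dehydrogenase complexes, was at 27.8 CPM against 131, 128, 121 and 171 CPM. Its partners in the 2-oxoglutarate dehydrogenase complex, OGDH and DLST, were highest there, at 2020 and 413 CPM against at most 1490 and 352 CPM in the other 19 libraries. MDH2 was at 2410 CPM against 1120, 1090, 1050 and 1160 CPM, and IDH2, the NADP-dependent mitochondrial isocitrate dehydrogenase, at 2780 CPM against 837, 775, 880 and 1350 CPM. The muscle fibre marker mean of this library was also the highest of the study, at 13.37. The library stood apart outside the set too. It had the fewest genes detected (13603) and the lowest TMM scaling factor (0.7248) of the 20. Its erythroid marker mean was 6.06 against 3.86 to 4.50 in the other gel libraries. Its mean of the regulators of mitochondrial and fatty acid genes was 4.40 against 5.12 to 5.28.

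Repair against uninjured muscle gave the smallest differences. Of the 34 genes 15 were above 0, with a median log2 difference of -0.017, and the values ran from -0.362 for DBI to 0.21 for DECR2. None of the set passed edgeR's quasi-likelihood test, against 1.01% of all genes (112 higher and 5 lower after repair), and none had an unadjusted p under 0.05, against 11.7% of all genes. DESeq2 and limma voom called 0 of the 34, with no share of all genes at hand. DBI was at 50.4, 62.9, 52.6, 49.7 and 63 CPM after repair and ran from 50.8 over a median of 67 to 113 CPM without injury, within which 3 of the 5 repair libraries fell. Its difference was -0.36 (SE 0.19, adjusted p = 0.471). ECI2 (-0.20, SE 0.11, adjusted p = 0.515), SUCLG1 (-0.16, SE 0.12, adjusted p = 0.711), ECI1 (-0.26, SE 0.22, adjusted p = 0.756) and FH (-0.14, SE 0.12, adjusted p = 0.757) followed.

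Each operated long-term file shares a code in its name with 1 uninjured file, which was taken to mark the same animal, although the labels do not say so. Within these assumed pairs the set's mean log2 CPM differed by 0.02 ± 0.17 after repair, higher in 3 of 5 pairs, and by -0.14 ± 0.22 with the gel, higher in 1 of 5 (SD, n = 5 pairs each).

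In the same libraries, without a block for these pairs, 8 of 9 adipocyte markers were above 0 in repair against uninjured muscle (median 1.8). Of these 6 passed, led by LEP (3.39, SE 0.54, edgeR adjusted p = 0.0109). Tenocyte markers were above 0 and passed in 4 of 4 tested. Genes near the set passed as well. PCK2, the mitochondrial phosphoenolpyruvate carboxykinase, was higher by 2.67 (SE 0.47, adjusted p = 0.0112). The fat cell regulator PPARG, which is also in the adipocyte list, was higher by 1.78 (SE 0.34, adjusted p = 0.0147). With the shared code as a block, edgeR called 0 of all genes in this comparison against 117 without it, so none of these calls held there. Respiratory chain genes were below 0 in 19 of 21 (median -0.2), with none called.

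Gel-treated against uninjured muscle also left the set near 0. There 14 of 34 genes were above 0 (median -0.026). The quasi-likelihood test of edgeR called 0 of the 34 against 0.00862% of all genes, and 2 of 34 (5.88%) against 13.8% of all genes had an unadjusted p under 0.05. DESeq2 and limma voom again called 0, with no share of all genes at hand. ETFDH was at 216, 349, 414, 312 and 478 CPM with the gel and ran from 378 over a median of 413 to 604 CPM without injury (log2 difference -0.34, SE 0.15, adjusted p = 0.347). Without gel replicate 1 it was -0.208. ACADL (-0.42, SE 0.20, adjusted p = 0.359), FH (-0.22, SE 0.12, adjusted p = 0.396), IDH3A (0.36, SE 0.20, adjusted p = 0.416) and ECI1 (0.36, SE 0.21, adjusted p = 0.433) followed. ECI1 was -0.0659 and FH -0.108 without gel replicate 1.

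Glycolysis genes were above 0 in 15 of 16 in this comparison (median 0.55), slow fibre genes in 1 of 9 (-0.72) and fast fibre genes in 8 of 8 (0.55), and no gene of these lists passed.

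Between the terms the differences of the set were large. Term cannot be told apart from library depth, from the run or from the form of the deposited files, whose headers differ between the terms, and 46.2% of all genes passed between the terms after repair. Of the set 22 of 34 (64.7%) passed edgeR's quasi-likelihood test after repair. Higher in the long term were 17 (50%, against 18.2% of all genes) and lower 5 (14.7%, against 27.9%). The median log2 difference was 0.70 (long minus short term) against -0.11 over all genes. With the gel 18 of 34 (52.9%) passed, against 48.3% of all genes. There 12 were higher (35.3%, against 21.8%) and 6 lower (17.6%, against 26.5%), and the median was 0.36. Without long-term gel replicate 5, 10 genes of the set passed with the gel, with no share of all genes at hand for that fit.

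Most dehydrogenases of beta-oxidation were higher in the long term. ACADM was at 35.3, 68.9, 66.6, 103 and 26.6 CPM in short-term repair and at 238, 248, 250, 252 and 348 CPM in long-term repair, with no overlap. Between the terms after repair, 9 of the 34 genes (26.5%) were higher without overlap, against 1406 of 12935 genes tested. For ACADM the fitted difference was as follows. Its log2 difference was 2.17 (SE 0.33, edgeR adjusted p = 6.69e-06). ACADL followed with 1.81 (SE 0.24, adjusted p = 5.74e-07), and the very long-chain dehydrogenase ACADVL with 0.89 (SE 0.23, adjusted p = 0.00243). With the gel the same 3 genes were higher by 0.85, 0.73 and 0.57. These values include long-term gel replicate 1, the lowest long-term library for ACADM (44.4 CPM) and ACADL (203 CPM). ACADL with the gel did not pass without long-term gel replicate 5 (0.528, adjusted p = 0.0622), nor did ACADM (0.605, adjusted p = 0.125).

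FABP3, another of the 9 genes higher without overlap after repair, was at 504, 501, 722, 255 and 863 CPM in long-term repair (3.03, SE 0.55, edgeR adjusted p = 6.92e-05). With the gel its difference was 1.96 (SE 0.53, adjusted p = 0.00321), and 1.34 without long-term gel replicate 1, where it was at 1350 CPM. ETFDH was higher by 1.38 after repair (SE 0.20, adjusted p = 2.29e-06) and by 0.98 with the gel (SE 0.20, adjusted p = 0.000167). ETFA (1.22), MDH1 (1.33), the thiolase ACAA2 (1.17), HADH (1.16), CPT2 (1.09) and DLST (0.96) were also among the higher genes after repair, each with an SE of at most 0.283. Adjusted p-values of these 6 ran from 2.67e-06 for ETFA to 0.00242 for CPT2.

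A small group of genes of the same pathways was lower in the long term, and FH, HADHB, DECR1 and DECR2 were as low in uninjured as in operated long-term muscle. Genes outside the set did the same: the glycolytic enzyme GAPDH, used widely as a reference gene, had a mean of 13300 CPM after short-term injury and 197 CPM in uninjured long-term muscle, and PGK1 one of 1860 and 4.18 CPM. Whether reads were assigned to these genes in the same way in both terms cannot be told apart from the term. FH, the fumarase of the cycle, ran from 48.6 over a median of 121 to 180 CPM in the 14 short-term libraries and from 6.38 over 10.4 to 12.2 CPM in the 20 long-term ones. Its log2 difference was -3.28 after repair (SE 0.28, edgeR adjusted p = 6.94e-11) and -3.72 with the gel (SE 0.29, adjusted p = 5.59e-12). Uninjured long-term muscle, at 9.69 to 12.2 CPM, overlapped with long-term repair, at 8.56 to 11.2 CPM. DECR2 ran from 2.22 to 11.1 CPM in the short and from 0.909 to 1.98 CPM in the long term. These 2 genes were lower in all long-term libraries than in all short-term ones (5.88%), against 2.91% of all genes, and none of the set was higher in all (1.61% of all genes).

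DECR1 ranged from 12.1 to 50.8 CPM in the short and from 4.83 to 12.8 CPM in the long term (-1.83 after repair, SE 0.29, edgeR adjusted p = 1.17e-05). CS, the citrate synthase often used as a marker of mitochondrial content, was at 410, 497, 551, 876 and 362 CPM in short-term and at 311, 358, 340, 340 and 417 CPM in long-term repair, a difference of -0.60 (SE 0.20, adjusted p = 0.0135). Uninjured long-term muscle was as low in CS, at 300 to 404 CPM. With the gel CS was lower by a log2 difference of -1.14 (SE 0.20, adjusted p = 3.02e-05) and DBI by -0.84 (SE 0.21, adjusted p = 0.00145).

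**Figure D4:**
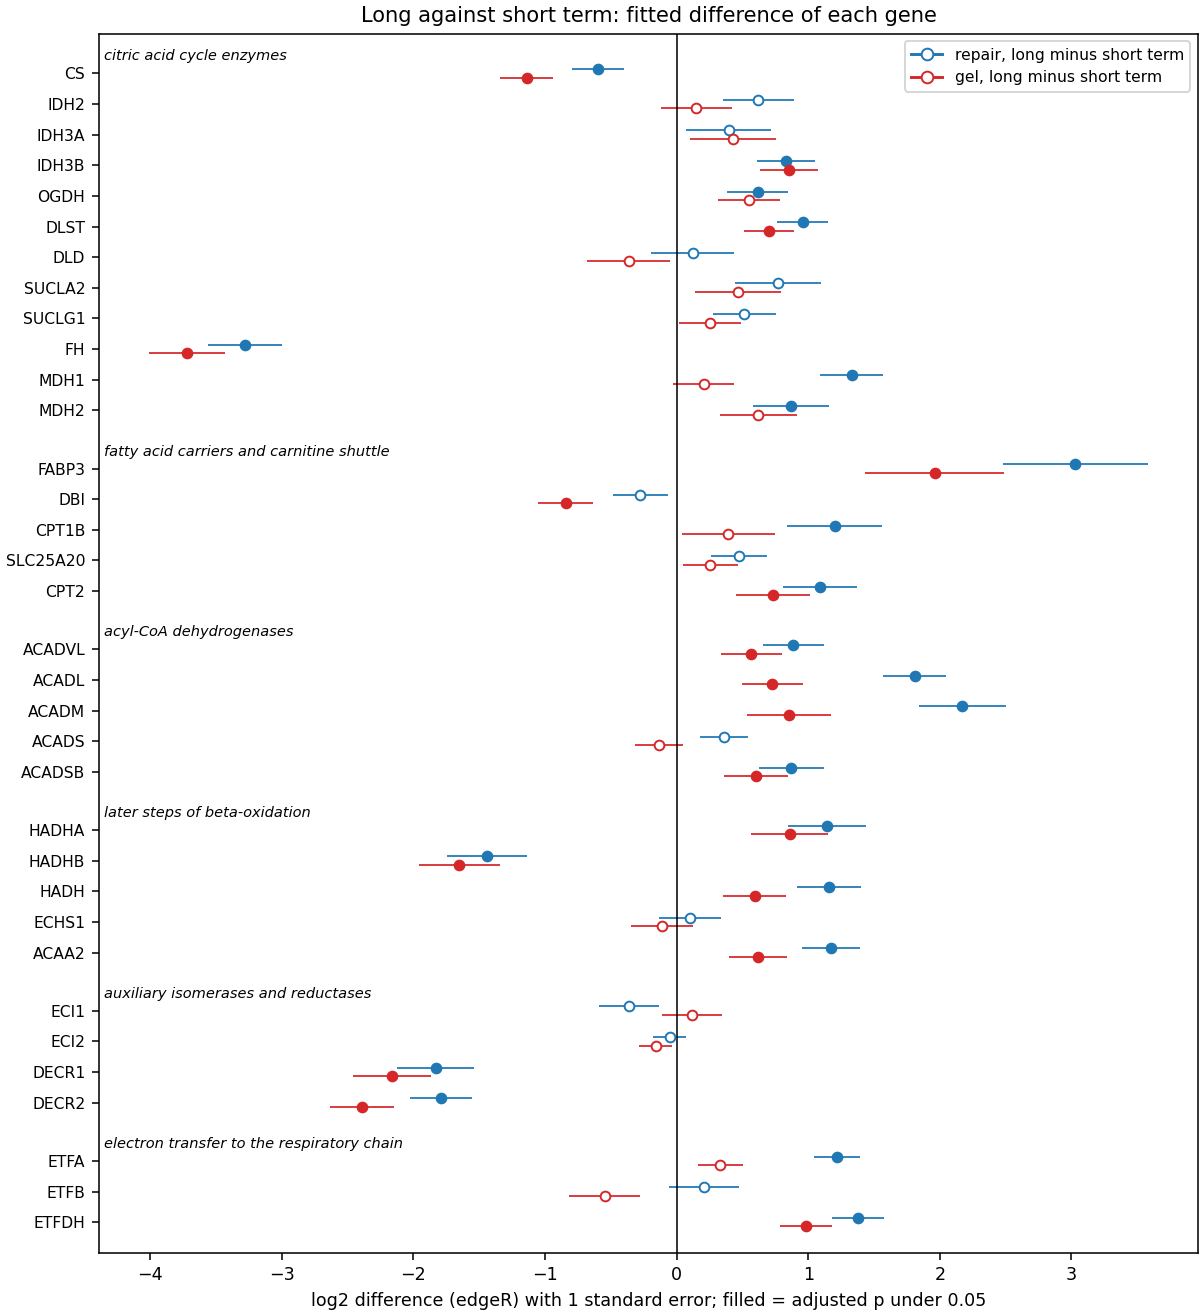
Fitted log2 differences of the 34 genes between the terms, long minus short, for repair in blue and the gel in red, with bars of 1 standard error and filled points for an adjusted p under 0.05. FH (-3.28 and -3.72), DECR1, DECR2, HADHB and CS lie below 0 in both, while the acyl-CoA dehydrogenases other than ACADS lie above 0.

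HADHA and HADHB encode the alpha and beta subunits of the mitochondrial trifunctional protein, which carries out the last 3 steps of long-chain beta-oxidation as 1 complex. Their reads parted between the terms. HADHA was higher in the long term by 1.14 after repair (SE 0.30, edgeR adjusted p = 0.0025) and HADHB lower, at -1.44 (SE 0.31, adjusted p = 0.000378). Within a library the CPM ratio of HADHA to HADHB does not depend on depth or scaling. It ran from 1.36 to 1.8 after short-term injury, from 1.29 to 1.68 in short-term repair and from 1.18 to 3.83 with the short-term gel. In the long term it ran from 7.39 to 13.3 in uninjured, from 7.91 to 15.7 in repaired and from 6.73 to 16.6 in gel-treated muscle. No long-term library reached the short-term range.

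Other pairs of subunits moved less. The ratio of ETFA to ETFB was 1.34 to 1.69 in short-term and 2.77 to 3.26 in long-term repair, and long-term gel replicate 1 was low at 1.15. That of SUCLG1 to SUCLA2, the subunits of succinyl-CoA synthetase, ran from 1.24 to 2.8 in 33 libraries and was 7.67 in long-term gel replicate 1. IDH3A to IDH3B ran from 0.8 to 3.23, with all 6 groups overlapping.

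The highest short-term ratio of HADHA to HADHB, 3.83, was in gel replicate 5. That library also had the lowest short-term values of FH (48.6 CPM, against 107 to 172 CPM in the other gel libraries), HADHB (34 CPM, against 74.9 to 128) and DECR1 (12.1 CPM, against 30.4 to 50.8), 3 of the genes that were lower in the long term. Its DECR2 was at 5.99 CPM, within the range of the other gel libraries.

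**Figure D5:**
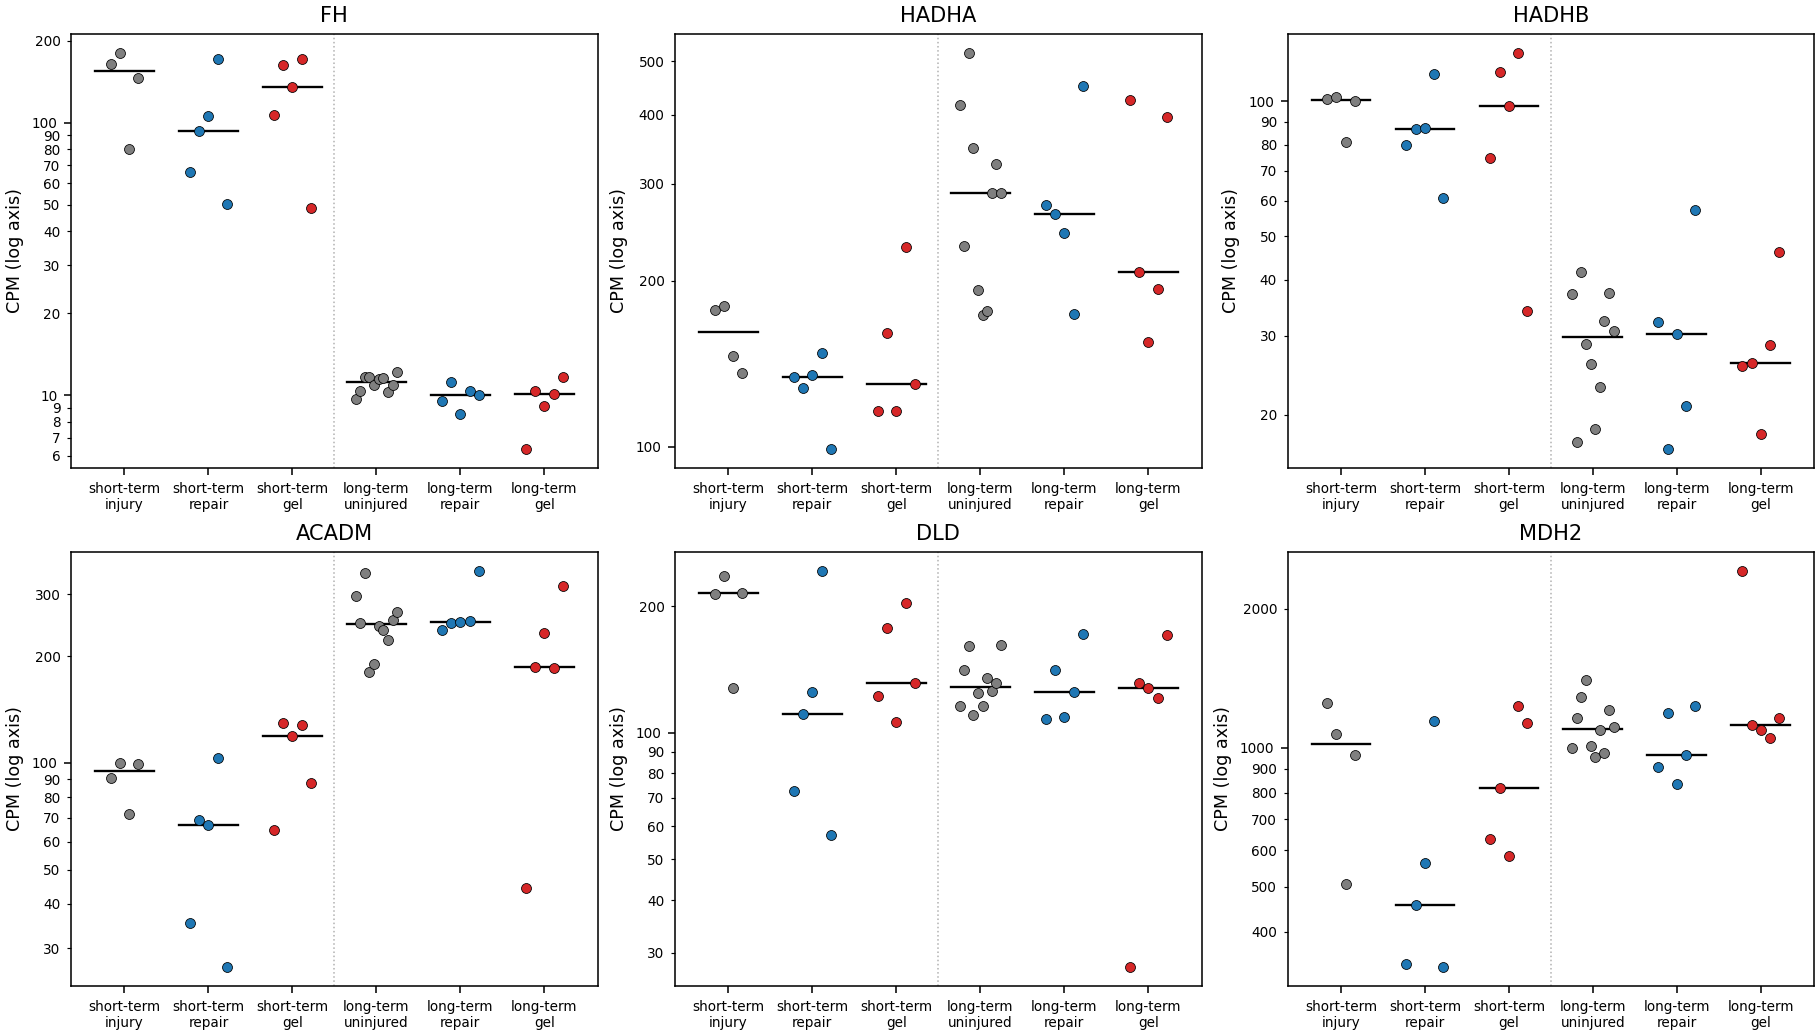
CPM per library on log axes for FH, HADHA, HADHB, ACADM, DLD and MDH2, with 1 point per library and a line at the group median. FH is at 12.2 CPM or less in all 20 long-term libraries, HADHA and HADHB move in opposite directions between the terms, and long-term gel replicate 1 is the low point of ACADM and DLD and the high point of MDH2.

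Neighbouring genes also parted between the terms. After repair 8 respiratory chain genes were higher and 3 lower in the long term. NDUFS1 of complex I was higher (1.45, SE 0.25, edgeR adjusted p = 4.01e-05), and COX7B of complex IV lower (-6.94, SE 0.34, adjusted p = 6.07e-17). Of 14 genes of pyruvate entry 10 were higher and 1 lower: PDHA1, a subunit of pyruvate dehydrogenase, was higher by 1.42 (SE 0.20, adjusted p = 1.80e-06), and MPC2 of the mitochondrial pyruvate carrier lower, at -2.53 (SE 0.18, adjusted p = 1.10e-12). Of the other citric acid cycle genes 5 were higher and 1 lower, SDHA of succinate dehydrogenase at 1.35 (SE 0.30, adjusted p = 0.000668) and SDHD of the same complex at -2.2 (SE 0.23, adjusted p = 7.37e-09). Of 19 regulators 10 were higher and 1 lower. The nuclear receptors ESRRG (2.57, SE 0.46, adjusted p = 5.85e-05) and PPARA (1.44, SE 0.30, adjusted p = 0.000282), which activate genes of fatty acid oxidation, were among the higher ones. Muscle fibre markers were above 0 in 11 of 12 (median 0.9, 5 called) and fibroblast markers below 0 in 10 of 10 (-3.6, 9 called). The part of these cell types in the set's differences was not tested.

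The test of whether the gel's difference from repair was itself unlike in the 2 terms used all 34 libraries. Of the set 31 of 34 values were above 0 (short minus long term), with a median of 0.38 against -0.065 over all genes. The quasi-likelihood test of edgeR called 0 of the 34 against 0.0155% of all genes, and 4 of 34 (11.8%) against 12.7% of all genes had an unadjusted p under 0.05. DESeq2 and limma voom called 0 of the 34, with no share of all genes at hand. ETFA (0.88, SE 0.25), MDH1 (1.12, SE 0.33) and ACADL (1.08, SE 0.33) had an edgeR adjusted p of 0.214 each. ACADM (1.31, SE 0.45) had one of 0.258 and ETFB (0.76, SE 0.38) one of 0.404. Without long-term gel replicate 1 the ETFB value was 1.23. That library was the lowest of the 20 long-term ones for ACADL (203 CPM) and ACADM (44.4 CPM). Low long-term gel values raise this difference, and the values of these 2 genes without that library are not given here. A difference of the gel's effect between the terms was thus not shown for any gene of the set.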

How the data were processed

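The authors deposited 1 table of raw read counts per gene for each of the 34 libraries, and the submitters' processing notes name STAR, edgeR and the build OryCun2.0. No versions, settings or strand option of the counting are stated in the sources used here. Long-term files carry a column header of a STAR step and short-term files a short code. From 18210 entries per file, 26 that had turned into dates in 1 file were dropped (0.163% of counts or less in any library) and repeated symbols were summed, leaving 18176 genes. Numbered locus identifiers were matched by gene number to a RefSeq table of another assembly, used for names only (2379 of 3500 matched, 578 received a symbol).

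The main test was edgeR 4.0.16 (R 4.3.3) with TMM scaling, filterByExpr and the robust quasi-likelihood F-test. It was fitted on the 14 short-term libraries (13526 genes), the 20 long-term libraries (11605) or all 34 (12935), with groups from the sample titles and Benjamini-Hochberg adjustment over all genes of a fit at a threshold of 0.05. CPM and log2 CPM (prior count 2) used TMM scaling over all 34 libraries. Log2 differences are fitted values. No 2 libraries of a group were identical. The tests were checked on simulated counts.

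The 34 genes, the 21 pathway and marker lists and the tests were chosen with earlier results of these data known, and lists are described by counts and medians only. Singled out in each comparison were the 5 genes of smallest p and up to 15 called, and in a list up to 3 called genes per direction or else the gene of smallest p. Genes shown for libraries that stood apart, subunit ratios, GAPDH, PGK1 and single libraries were picked after their values were seen. The most and least abundant genes of the set were not ranked, for want of transcript lengths. Alternatives were DESeq2 1.42.0, its size factors in edgeR, an unfiltered fit, limma 3.58.1 voom with sample quality weights, other choices of libraries in a fit, replicate blocks and leaving out each library. Codes shared by file names were taken as animal codes, which the labels do not state, and gave 10 long-term pairs. Their deviations correlated from -0.169 to 0.303, over 0.1 in 6 of 10.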

Additional observations from a re-analysis of the deposited data

Results flagged for a closer look

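Single libraries far from the rest of their group were looked for in the log2 CPM of the 34 genes and of 7 list means in 6 groups. These were 246 tests at a level that chance passes in about 5%, and 12 were found, about as many as chance would give. Of these, 6 were in long-term gel replicate 1: DLD at 4.80 (others 6.93 to 7.42), SUCLA2 at 5.95 (7.65 to 7.79), ACADM at 5.47 (7.54 to 8.30) and ACADSB at 5.89 (7.44 to 7.77) on the low side, and MDH2 at 11.24 (10.03 to 10.18) on the high side. In the same library ECI2 was high too, at 4.61 (4.03 to 4.10). Short-term injury replicate 3 was low for DLD at 7.00 (others 7.75 to 7.88) and for HADHB at 6.35 (6.65 to 6.67). ACADM was high in long-term repair replicate 5, at 8.44 (7.89 to 7.98), and DECR2 low in long-term repair replicate 2, at 0.15 (0.66 to 0.83). SLC25A20 was low in short-term repair replicate 5, at 5.26 (5.47 to 5.55), and high in short-term gel replicate 2, at 6.11 (5.31 to 5.51).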

How the results depend on the processing

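Calls of the set depended on the tool and on the libraries in the short term. The number called in gel against repair was 0, but 5 with DESeq2 (0.939% of all genes) and 4 with all 34 libraries in one fit. In repair against injury it was 0, but 17 with limma voom and sample quality weights (34.8% of all genes). It was 22 without the 2 libraries that stood apart (33.3% of all genes), an alternative chosen after seeing the data. In gel against injury it was 0, but 2 with DESeq2 (5.83% of all genes), 5 with limma voom (28.1%) and 3 without the 2 libraries (18.9%). It was 2 with all 34 libraries in one fit and 0 to 1 with single libraries left out. With the gel, long against short term, 10 to 20 were called with single libraries left out, lowest without long-term gel replicate 5. In the main fit of that comparison 48.3% of all genes passed. No share of all genes is at hand for fits of all 34 libraries or with single libraries left out. The same holds for DESeq2 and limma voom outside the short-term comparisons. Those counts are therefore not results about the set. ECI1 in long-term gel against uninjured turned from 0.357 to -0.0781 with limma voom and ran from -0.0659 to 0.489 with single libraries left out. The causes were not tested. Of the values of single genes, 1066 of 1115 kept their direction and side of the threshold, 29 came to pass it and 18 no longer did. A replicate block by number gave 0 calls of the set and medians of 0.47, -0.41, 0.046 and -0.092 in the 3 short-term comparisons and long-term gel against repair. Same-numbered libraries deviated together in 5 of 13 short-term and 0 of 5 long-term pairs (correlation over 0.1). Others deviated in opposite directions: the correlations ran from -0.371 to 0.397 in the short and from -0.123 to 0.0786 in the long term. A replicate block by assumed animal code left the set at 0 calls, with medians of 0.052 in repair and -0.16 in gel against uninjured. It ended the calls of all 117 genes outside the set in repair against uninjured, LEP, PCK2 and PPARG among them.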
